A study of Homo sapiens with 3 samples.

Results

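The genes described here build and run the machinery that brings proteins into the endoplasmic reticulum (ER). They were chosen by gene name: members of the signal recognition particle (SRP) and its receptor, the Sec61 channel and TRAM proteins, the translocon-associated protein complex (TRAP, the SSR genes), signal peptidase, oligosaccharyltransferase, the ER membrane protein complex (EMC), the GET pathway and the ALG enzymes. A measured value entered the choice as well, because a gene had to be listed in all 3 libraries and a transcript was listed only where the ribosome density of its coding sequence (CDS) reached 1 RPKM. This gave 48 genes out of 8812 transcripts, one transcript per gene. Each library listed the same 48. Values given as a series of 3 follow the order of Untreated A, Untreated B, G418 A. The lowest density inside this limit was that of ALG1L, at 4.82, 5.56 and 3.39 RPKM. SRP9, SRP72, SRPRB, SSR1, SEC62, SEC63, TRAM1 and CAMLG are not analysed here, nor are ALG2, ALG6, ALG8, ALG9, ALG11 and ALG13. The study also discarded transcripts that overlapped a nearby transcript or had UTRs over pseudogenes, so absence does not show low occupancy.

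In ribosome profiling, the stretches of mRNA shielded from nuclease by ribosomes (ribosome-protected fragments, RPFs) are sequenced, and reads on a region count the ribosomes that occupied it. The cells were HEK293T, a human embryonic kidney line carrying the SV40 large T antigen. The untreated group had 2 libraries, A and B, at 0 µg/mL of drug. The G418 group had 1 library, A, from cells kept for 24 hours in 500 µg/mL G418, an aminoglycoside that binds the ribosome and makes decoding less accurate. All 3 libraries came from this single cell line and from lysates made with cycloheximide, which holds ribosomes in place. The comparison addresses where the drug lets ribosomes pass stop codons, and how ribosome occupancy of this machinery differs beside it.

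Most secreted and membrane proteins enter the ER while they are still being made. SRP catches the signal sequence as it leaves the ribosome and docks at its receptor, the Sec61 channel with TRAP and TRAM opens the membrane, signal peptidase removes the signal, and oligosaccharyltransferase attaches a sugar tree that the ALG enzymes have assembled on a dolichol lipid. EMC inserts membrane segments that the channel handles poorly, and the GET pathway delivers proteins anchored by their tail.

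The libraries held 5857230, 9477972 and 7216039 reads on their RPM scale. The study's minimum number of reads per transcript, applied here to the mean of the CDS reads over the libraries, was reached by 5684 transcripts and by 45 of the 48 genes. ALG1L (a mean of 18.7 reads), EMC9 (109) and ALG10B (117) fell short, and EMC6 (147) and ALG14 (151) lay just above. Of genes often seen in HEK293 lines, SOX2 and LHX1 were listed in every library and PAX2 in Untreated B alone. Of the markers of other cells, ALB, APOA1, PTPRC, KRT5 and COL1A2 were not listed, CD74 reached at most 1.16 RPM, KRT14 lay between 6.79 and 16.4 RPM and COL1A1 between 34.8 and 46.7 RPM. The part of these in any result was not tested.

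The sequences around the stop codons are printed because the readthrough score described below differed widely among the genes. It ranged in G418 from no read to over 200% across them. Whether the sequence sets the score was not tested. Each line gives 30 bases of the mRNA strand, written with T for U, from the hg38 genome at the GENCODE v44 transcript of the same version. Capitals mark the stop codon and the base after it. Such a match was found for 37 of the 48 genes. The first 7 had the highest scores in G418 among genes with such a match and at least 10 readthrough reads. EMC3, at 76%, had no match. The last 5 were the lowest among genes where a score of 100% would have given at least 50 reads.
EMC6: atggtgcacgtctacTGAAatgggggcccg
SPCS1: catgctaaaaataatTGAGgttttcatgat
ALG14: cttgggcgaattgttTGACaaatggcaact
OST4: cccaagaagcaggaaTGAAagtggcgcttt
SEC61G: atcattgttggtggcTGAAtacattttgga
RPN2: aagagaacagcacatTAGTtccagaagaaa
DAD1: atgaactttgttggcTGAAtcattctcatt
SEC11A: gtagatactggtctgTGATtggtggaatgg
EMC10: actttgacactggacTAGGatgcagcctcc
OSTC: ggctatctgatgggtTAGAgtgcctttgag
SRP19: cagttcccatcacgtTAAGaatgtctgagg
ALG5: actcggaaaatgaatTAGGttgtttgcagt
The high group holds 6 UGA stops and 1 UAG, and the low group 1 UGA, 3 UAG and 1 UAA. The stop codons lie at chr17:3669477-3669479 on the plus strand for EMC6, in exon 2 of 2, at chr3:52707810-52707812 on the plus strand for SPCS1, in exon 4 of 4, and at chr1:94983076-94983078 on the minus strand for ALG14, in exon 4 of 4. That of SEC61G lies at chr7:54752411-54752413 on the minus strand, in exon 4 of 4. Those of OST4 (chr2:27071349-27071351, minus strand, exon 1 of 2) and DAD1 (chr14:22575103-22575105, minus strand, exon 2 of 3) lie before the last exon, so that an exon junction follows the stop codon in the 3′UTR. For the others the stop is in the last exon: RPN2 at chr20:37241313-37241315 (plus), SEC11A at chr15:84669943-84669945 (minus), EMC10 at chr19:50482726-50482728 (plus), OSTC at chr4:108667263-108667265 (plus), SRP19 at chr5:112891605-112891607 (plus) and ALG5 at chr13:36949942-36949944 (minus).

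Ribosome occupancy of the CDS was somewhat higher in G418 for most of the genes. The median log2 change from the untreated libraries was 0.27 over the 45 genes, against 0.07 over all 5684 transcripts. It was 0.22 over Untreated A alone and 0.31 over Untreated B alone, and Untreated B differed from Untreated A by a median of -0.11. The G418 value lay above both untreated libraries for 28 of 45 genes (62.2%, background 46.3%) and below both for 10 (22.2%, background 27.9%). With TMM scaling these shares were 55.6% above and 22.2% below, against 36.9% and 36.4% of all transcripts. Oligosaccharyltransferase had 8 of 10 genes above both untreated libraries, with a median of 0.32. The bulk libraries cannot tell apart more ribosomes per mRNA, more mRNA per cell and a changed mixture of cells.

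**Figure D1:**
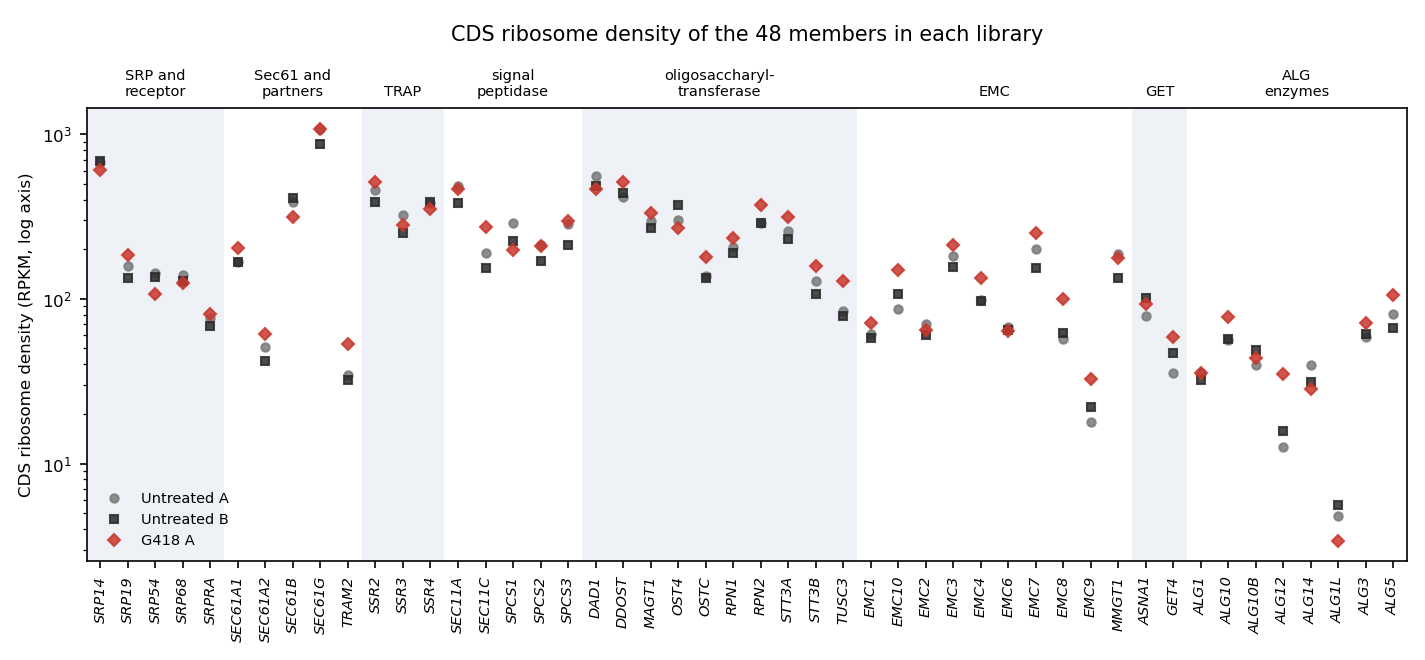
CDS ribosome density of each of the 48 genes on a log axis, in RPKM, with 1 point per library and genes grouped by role. SEC61G lies highest, at 874 RPKM in its lowest library, and ALG1L lowest, and the 3 libraries of most genes lie close together beside that range.

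The quasi-likelihood test of edgeR takes the spread from the 2 untreated libraries and from a trend over all transcripts. It assumes that the single G418 library varies like the untreated ones. In this test 4 of 45 genes passed an adjusted p of 0.05 as higher (8.89%, background 3.18%) and 0 as lower (background 0.545%). At an unadjusted p under 0.05, 12 genes were higher and 2 lower (26.7% and 4.44%, against 11.8% and 3.52% of all transcripts). DESeq2 gave an adjusted p to 30 of the 45 genes, of which 0 passed (background 1.15%), and 6 of the 45 had an unadjusted p under 0.05 (13.3%, against 6.91% of all transcripts). With TMM scaling in edgeR ALG12 alone passed. Over all transcripts edgeR called 181 higher and 31 lower, and with TMM 106 and 42. By size, 6 genes were at least 1.5-fold over the untreated mean and above both libraries (13.3%, background 7.64%), and 0 were at least 1.5-fold under it (background 1.5%).

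ALG12, the mannosyltransferase that adds a late mannose to the lipid-linked sugar tree, changed most. Its CDS held 18.1, 22.6 and 50.4 RPM. The G418 library thus lay far above both untreated ones, 2.48-fold over their mean, with a log2 change of 1.31 ± 0.28 (SE) and an adjusted p of 6.7e-04. ALG12 was among the 15 genes to which DESeq2 gave no adjusted p. SEC11C, a catalytic subunit of signal peptidase, held 104, 83.6 and 149 RPM. It rose by 0.67 ± 0.18 on the log2 scale (adjusted p = 0.0118), a call lost with TMM (adjusted p = 0.0555) and with DESeq2 (adjusted p = 0.343).

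TUSC3, the oxidoreductase subunit of the oligosaccharyltransferase that holds STT3B, held 84.9, 79.6 and 130 RPM. The untreated libraries differed little and the log2 change was 0.66 ± 0.19 (adjusted p = 0.0177), against an adjusted p of 0.068 with TMM and 0.325 with DESeq2. EMC10, a subunit of the EMC on its lumenal side, held 94.4, 116 and 162 RPM. Its log2 change of 0.62 ± 0.18 passed with an adjusted p of 0.0184, which became 0.0738 with TMM and 0.355 with DESeq2. The other genes past 1.5-fold were EMC8 and TRAM2, which missed the test.

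**Figure D2:**
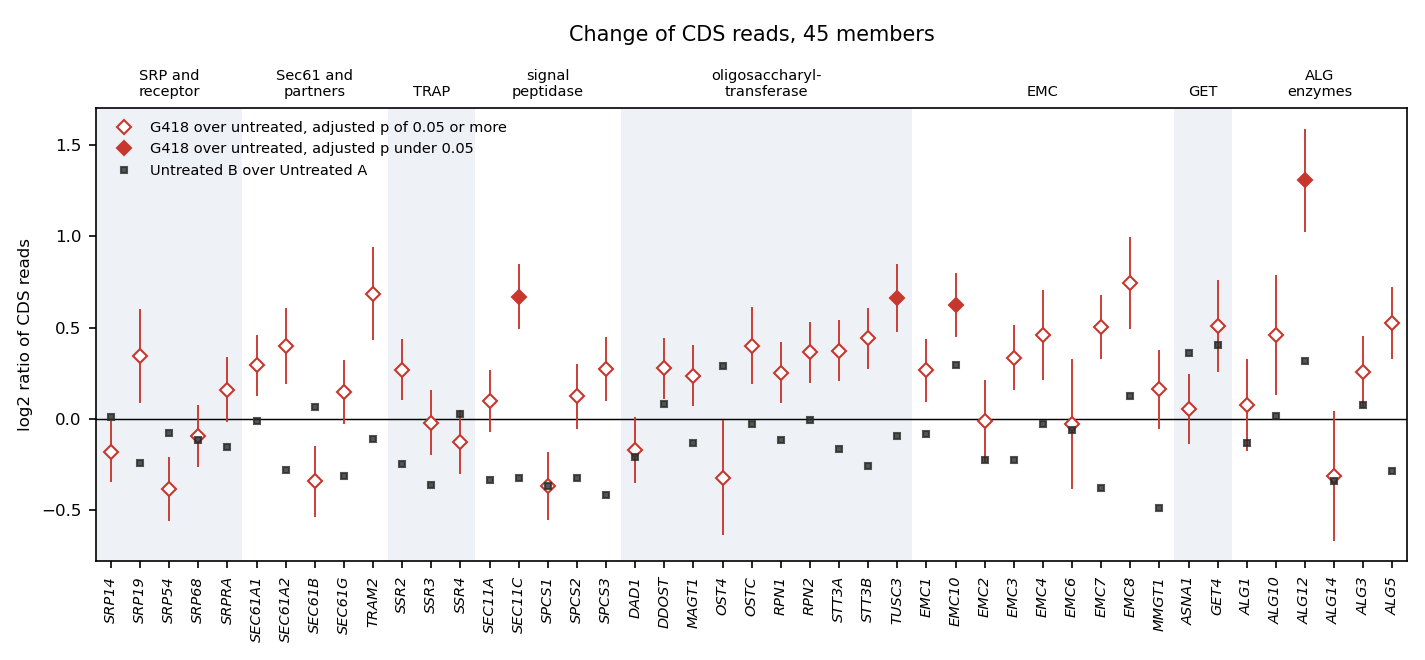
The log2 ratio of CDS reads for the 45 genes, by role. Red diamonds give G418 over untreated from edgeR with bars of 1 SE, filled where the adjusted p is under 0.05 (ALG12, SEC11C, TUSC3 and EMC10), and black squares give Untreated B over Untreated A.

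Within the targeting machinery, SRP and its receptor had the lowest median of the 8 roles, a log2 change of -0.09 over 5 genes, with 2 above both untreated libraries and 3 below both. SRP54, the GTPase subunit that binds the signal sequence, changed most, with 212, 201 and 158 RPM and a log2 change of -0.38 ± 0.18 (adjusted p = 0.261). SRP68, a scaffold of the particle, changed least, with 258, 238 and 232 RPM (log2 -0.09 ± 0.17). SRP14, which helps SRP slow elongation, had the highest density of the group, between 606 and 689 RPKM. None of the 5 passed the test.

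No gene of the Sec61 channel passed the test. SEC61A1, the pore-forming subunit, held 235, 233 and 287 RPM (log2 0.29 ± 0.17, adjusted p = 0.396), and SEC61G, the small gamma subunit, 188, 152 and 188 RPM (log2 0.15 ± 0.17). SEC61B, the small beta subunit, was below both untreated libraries, with 101, 106 and 81.3 RPM (log2 -0.34 ± 0.19, adjusted p = 0.402). The channel partner TRAM2 had the largest value of this group, with 37.2, 34.5 and 57.5 RPM (log2 0.69 ± 0.26), and missed the threshold with an adjusted p of 0.118. SEC61A2 held 65.6, 54.1 and 78.7 RPM, above both untreated libraries (log2 0.40 ± 0.21, adjusted p = 0.337). The channel genes thus had values on both sides of no change, none of which passed the test.

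TRAP, which assists the channel, had a median log2 change of -0.02 over SSR2, SSR3 and SSR4. SSR2 changed most, with 239, 201 and 265 RPM (log2 0.27 ± 0.17), and SSR3 least, with 170, 132 and 149 RPM between the untreated libraries (log2 -0.02 ± 0.18). In signal peptidase, the subunit genes gave different values from one another. Against the rise of SEC11C, the alternative catalytic subunit SEC11A held 255, 202 and 244 RPM, within the untreated range (log2 0.10 ± 0.17), and SPCS1, an accessory subunit, held 137, 107 and 94.2 RPM (log2 -0.37 ± 0.19, adjusted p = 0.321). The difference between SEC11C and SEC11A was not tested.

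Oligosaccharyltransferase ranged from a log2 change of -0.32 to 0.66. Its catalytic subunits STT3A and STT3B were both above both untreated libraries, with 538, 480 and 660 RPM for STT3A (log2 0.37 ± 0.17, adjusted p = 0.23) and 313, 261 and 389 RPM for STT3B (log2 0.44 ± 0.17, adjusted p = 0.121). The ribophorins RPN1 and RPN2 and the subunit DDOST lay above both as well, at 423, 694 and 691 RPM in G418. The 2 genes below both were the short subunits DAD1, with 173, 150 and 144 RPM (log2 -0.17 ± 0.18), and OST4, with 24.6, 30.1 and 21.9 RPM (log2 -0.32 ± 0.32). DAD1 was the least changed of the complex.

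EMC had a median log2 change of 0.34 over 9 genes, with 6 above both untreated libraries. EMC8, a cytosolic subunit, changed most, with 34.1, 37.2 and 59.9 RPM (log2 0.75 ± 0.25), and missed the threshold with an adjusted p of 0.0696. EMC2, another cytosolic subunit, changed least, with 60.4, 51.7 and 55.4 RPM (log2 -0.01 ± 0.23). In the GET pathway, GET4, part of the complex that hands tail-anchored proteins to the targeting ATPase, held 33.8, 44.8 and 56.1 RPM (log2 0.51 ± 0.25, adjusted p = 0.303). The targeting ATPase ASNA1 held 79.7, 102 and 94.9 RPM, within the untreated range.

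The ALG enzymes had a median of 0.36 over 6 genes, with 5 above both untreated libraries. ALG1, the enzyme that adds the innermost mannose, changed least, with 48.1, 43.9 and 48.4 RPM (log2 0.08 ± 0.25). ALG5, which makes the glucose donor dolichyl-phosphate-glucose, held 75.8, 62.4 and 99.1 RPM (log2 0.53 ± 0.20, adjusted p = 0.124). ALG10 and ALG10B are near-identical copies, listed with transcripts that encode 126 residues each and share the same 30 bases around the stop, and ALG1L is a paralog of ALG1. Reads of such copies can be credited to either, so their values are uncertain.

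Of a fixed list of 38 other gene symbols for the pathway, 32 were listed and tested. SND1, counted among the 32 and among those below both untreated libraries, is only a namesake of a targeting factor. In G418, 20 lay above both untreated libraries (background 46.3%) and 5 below both (background 27.9%), with a median log2 change of 0.16 against 0.07 over all transcripts. The edgeR test passed 2 as higher (background 3.18%) and 0 as lower (background 0.545%). These were TMEM147 (82.1, 97.5 and 151 RPM, log2 0.75 ± 0.18, adjusted p = 0.00313) and NCLN (88.3, 88.1 and 131 RPM, log2 0.57 ± 0.18, adjusted p = 0.0497), which are both parts of the translocon that inserts proteins with many membrane spans. NOMO1, NOMO2 and NOMO3, near-identical partners of this translocon, cannot be told apart.

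Ribosomes beyond the stop codon were far more frequent in G418. The ribosome readthrough score (RRTS) is the read density from the normal termination codon (NTC) to the next stop in the same frame, divided by the density of the CDS, given here in percent. Summed over the 45 genes, the readthrough regions held 81, 77 and 1332 reads. The pooled RRTS was 2.21% (95% counting interval 1.75 to 2.74), 1.37% (1.08 to 1.71) and 27.8% (26.3 to 29.3). This was 15.6-fold over the untreated mean of 1.79% ± 0.594 (SD, n = 2). Over all 5684 transcripts the pooled values were 1.57%, 1.25% and 21.3%, a 15.2-fold difference. The single gene OST4 gave 46 of the 81 reads, 46 of the 77 and 403 of the 1332, and without it the G418 value was 21.5% and the fold 24.9.

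In G418 the interval of the RRTS lay above both untreated intervals for 17 of 45 genes (37.8%, background 25.6%). They were SRP14, SRP68, SEC61A1, SEC61G, SSR2, SSR3, SSR4, SPCS1, SPCS3, DAD1, DDOST, OST4, RPN1, RPN2, EMC6, EMC7 and ALG14. These intervals cover counting error only. An edgeR fit on the same reads passed 3 as higher (6.67%, background 1.83%), which were SEC61G (adjusted p = 1.13e-04), OST4 (adjusted p = 0.0167) and SPCS1 (adjusted p = 0.0336). At least 1 readthrough read was seen in G418 for 41 of 45 genes (91.1%), against 75.8% of all transcripts. All these shares depend on depth. An RRTS of 100% in G418 would have given 4792 reads over the 45 genes and 366649 over all 5684 transcripts. That is more per gene among the 45, and the shares were not adjusted for it. The median RRTS in G418 was 13.9%, against 18.4% over all transcripts, so that the median of the genes lay below that of all transcripts while their pooled value lay above it.

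**Figure D3:**
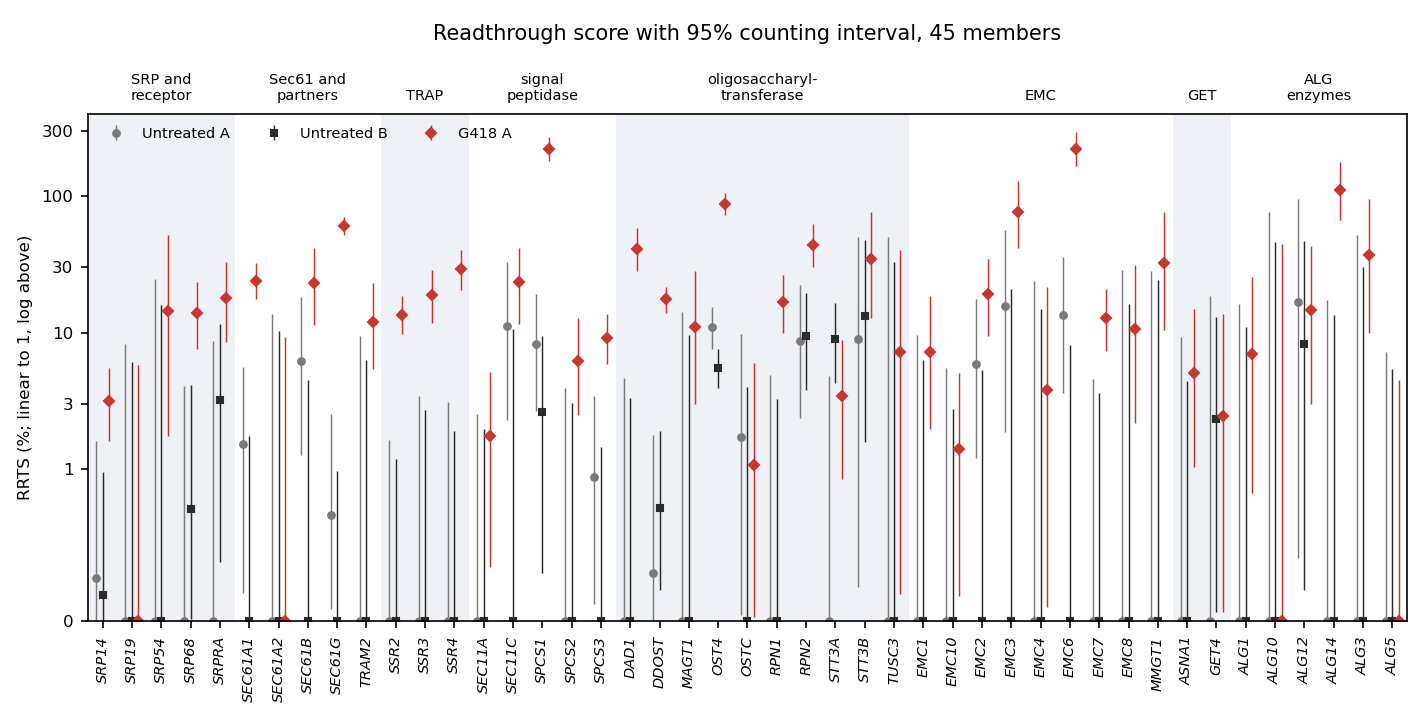
RRTS of the 45 genes in percent, on an axis that is linear up to 1 and logarithmic above, with 95% counting intervals for each library. In G418, EMC6, SPCS1 and ALG14 lie above 100%, whereas SRP19, SEC61A2, ALG10 and ALG5 lie at 0.

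By role, Sec61 and its partners and oligosaccharyltransferase had the highest pooled RRTS in G418, at 39.3% (34.8 to 44.2) and 39.6% (36.4 to 42.9). EMC followed at 26.4% and signal peptidase at 24.3%, whose intervals overlap. TRAP reached 18.4% and the ALG enzymes 17.7%. SRP and its receptor stood at 6.18% (4.37 to 8.48) and the GET pathway at 4.01% (1.09 to 10.3), both low beside the other roles. This order rested on single genes, which were left out in turn after the values were seen. OST4 gave 403 of the 586 reads of oligosaccharyltransferase and SEC61G 212 of the 279 of Sec61 and its partners. Without them these roles reached 18% (15.5 to 20.8) and 18.7% (14.5 to 23.8). TRAP without SSR2, its gene with the most reads, reached 24.3% (18.6 to 31.2). Without SPCS1 signal peptidase reached 7.63%, without EMC6 EMC reached 12%, and without ALG14 the ALG enzymes reached 5.99%. SRP and its receptor reached 4.67% without SRP68, and the GET pathway 2.45% without ASNA1. TRAP had its 103 reads spread over SSR2 (42), SSR3 (22) and SSR4 (39).

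EMC6, a small membrane subunit of the EMC with 110 residues, had the highest score. It held 4, 0 and 77 readthrough reads, and its RRTS was 13.6%, 0 and 222% (166 to 295). In G418, ribosome density was thus higher past its stop codon than before it. The extension read there has 26 codons up to a UAG. The score rests on a lightly occupied CDS, with 118, 183 and 139 reads.

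SPCS1 had an almost equal score, with 5, 2 and 113 readthrough reads and an RRTS of 8.23%, 2.62% and 220% (179 to 269). Its extension has 13 codons before a UGA. The listed transcript encodes 169 residues, and the CDS density is taken over that whole length. ALG14, the membrane anchor of the enzyme that adds the second sugar of the tree, held 0, 0 and 21 readthrough reads. Its RRTS in G418 was 111% (66.2 to 177) over an extension of 32 codons, and 0 reads allow up to 13.9% and 10.9% in the untreated libraries (3 reads). These 3 genes were the only ones of the 45 above 100%.

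OST4, a subunit of oligosaccharyltransferase with 37 residues, had the most readthrough reads of the 45 genes in every library. It held 46, 46 and 403 reads, and its RRTS was 10.9% (7.66 to 15.3), 5.52% (3.95 to 7.55) and 87.2% (72.3 to 105). The extension of 80 codons is longer than the protein itself and ends at a UAA. The interval in G418 lay above both untreated ones. SEC61G, of 68 residues, held 2, 0 and 212 reads, and its RRTS was 0.7%, 0 and 60.3% (51.9 to 69.7), over 16 codons up to a UGA.

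EMC3, a core subunit of the EMC insertase, had 2, 0 and 14 reads over the 5 codons of its extension, with an RRTS of 15.6%, 0 and 76%, the last with a lower bound of 41.4%. Its interval in G418 overlapped that of Untreated A. RPN2 held 4, 7 and 32 reads, with an RRTS of 8.72%, 9.48% and 44.1% (30.1 to 62.3), so that it also had reads in both untreated libraries. DAD1 held 0, 0 and 33 reads (RRTS of 41% in G418, 28.1 to 57.9). SSR4 has no further in-frame stop in its 3′UTR, so the region runs to the end of the transcript, and it held 0, 0 and 39 reads (29% in G418, 20.5 to 39.9). SEC61A1 held 2, 0 and 47 reads, with an RRTS of 1.54%, 0 and 24.1% (17.6 to 32.1).

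Other genes showed almost no readthrough although the depth would have shown it. ALG5 held 0 reads in every library, where an RRTS of 100% would have given 82 reads in G418, and 0 reads allow an RRTS of up to 3.66% (3 reads). SRP19, an SRP subunit, held 0 reads in every library, which allows up to 4.67% in G418. OSTC, a subunit of the oligosaccharyltransferase that holds STT3A, held 1, 0 and 1 reads (1.07% in G418, 0.0271 to 6), EMC10 0, 0 and 2 reads (1.4%, 0.169 to 5.07) and SEC11A 0, 0 and 3 reads (1.75%, 0.361 to 5.13). The intervals of these 5 genes in G418 all lay below the pooled 27.8% of the 45 genes and below their median of 13.9%. The 5 were chosen as the lowest, so this describes the choice and tests nothing. STT3A, with 0, 10 and 4 reads, had more readthrough reads in Untreated B than in G418, at 8.98% (4.3 to 16.5) and 3.44% (0.936 to 8.8), intervals that overlap.

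Stop codons differed in use and in readthrough. Of the 45 genes, 17 end in UGA (37.8%, against 49% of the other transcripts), 11 in UAG (24.4%, against 21.1%) and 17 in UAA (37.8%, against 30%). In G418 the pooled RRTS of UGA genes was 45.6% (43 to 48.4), against 29.6% of the other UGA transcripts, but their medians were 29% and 27.5%. UAG genes reached 11.7% (9.62 to 14) against 19.3%, and UAA genes 8.56% (7.1 to 10.2) against 12.2%. The medians were 10.7% against 16.3% for UAG and 11% against 8.94% for UAA, so that for UAA the median and the pooled value differed in direction. The higher pooled value of UGA genes rested on 4 of them: OST4, SEC61G, SPCS1 and EMC6 held 805 of the 1097 reads. The other 13 reached 19.4% (17.3 to 21.8). The 4 were picked for their high readthrough, while the other UGA transcripts kept their own highest scores. The 19.4% therefore describes the remaining genes and cannot be compared with the 29.6% of other UGA transcripts.

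The same stop signal did not give the same score. Among the 8 genes with UGA followed by A, the RRTS in G418 ran from 2.45% in GET4, which had 1 read, to 222% in EMC6, with OST4, SEC61G, DAD1 and EMC3 between. Of the 2 genes with UGA followed by U, SEC11A had 1.75% and SSR2 13.6% (42 reads), against a median of 31.7% of other transcripts with this signal. If every gene had read through as transcripts of the same 4-nucleotide signal did, 1072 reads were predicted against the 1332 found, a ratio of 1.24 (1.18 to 1.31). Without OST4 the ratio was 1.01 (0.941 to 1.07). Without OST4, SEC61G, SPCS1 and EMC6 it was 0.668 (0.612 to 0.727), for 41 genes that include the rest. The removed genes were picked for their readthrough reads, so that this last value is a description.

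Scores were also set beside the length of the CDS. The 19 genes with a CDS of up to 600 nt had a pooled RRTS of 37.6% in G418 and the 26 longer ones 15.2%, whereas other transcripts gave 18% and 23.5%. Of the 6 genes with a score over 50%, 4 had the shorter CDS (OST4, SEC61G, SPCS1 and EMC6) and 2, ALG14 and EMC3, the longer. Those 4 all end in UGA and gave 805 readthrough reads in G418, and the pooled values by length were not taken without them. The higher pooled values of the shorter genes, and of the shorter UGA genes below, thus cannot be told apart from these 4. They do not show that a short CDS goes with high readthrough across the genes. UGA genes gave 57.5% for the shorter CDS and 21.9% for the longer. UAA genes gave 6.7% and 11.1%, and UAG genes 13% and 11.1%. The split by length was chosen after the values were seen. The medians were closer, at 18.9% and 13.4%, and the rank correlation of CDS length with RRTS was -0.10 over the 45 genes and -0.08 over 5639 other transcripts, all within the same G418 library.

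Reads elsewhere in the untranslated regions were then counted per 100 CDS reads, a comparison also chosen after the data were seen. Over the 45 genes the 5′UTR held 1.22, 1.36 and 0.843 reads per 100 CDS reads, against 2.09, 2.2 and 1.91 over all transcripts. Of 7 genes with a mean of at least 20 reads in the 5′UTR, 2 had an interval in G418 below both untreated ones (28.6%, background 10.8%) and 0 above both (background 1.21%). EMC4, a membrane subunit of the EMC, had 30.3, 19.3 and 5.45 (73, 74 and 22 reads). ALG12 had 22.6, 28.5 and 3.3 (24, 61 and 12 reads). For both genes the CDS in RPM, by which these values are in effect divided, lay above both untreated libraries in G418. Part of each fall thus lies in the divisor. EMC6, whose 5′UTR held more reads than its CDS in every library, had overlapping intervals at 147, 138 and 119, and SRP54, STT3A, EMC3 and MMGT1 also had an interval in G418 that overlapped at least 1 untreated one.

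Between the end of the readthrough region and the end of the transcript, the 45 genes held 0.274, 0.195 and 0.911 reads per 100 CDS reads, against 0.175, 0.15 and 0.852 over all transcripts. The interval in G418 lay above both untreated ones for 9 of 42 genes with at least 18 nt there (21.4%, background 12.7%). These values are not corrected for the length of the CDS or of the region. The region had 158 nt in SEC61B, 97 nt in SEC61G and 1412 nt in SRP19, so the order of genes is not an order of density. Of the 9, SEC61B had the largest value, with 0.678, 0.5 and 9.2 (4, 5 and 54 reads), although it held 11 reads in the readthrough region itself in G418. SEC61G reached 6.25 (85 reads), DAD1 5.01 (52 reads) and SPCS1 2.79 (19 reads) in G418. SRP19 differed from all of these, with 35, 37 and 38 reads and 13.8, 10.6 and 10.4 per 100 CDS reads, so that reads lay in its distal 3′UTR in every library while its readthrough region held none.

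**Figure D4:**
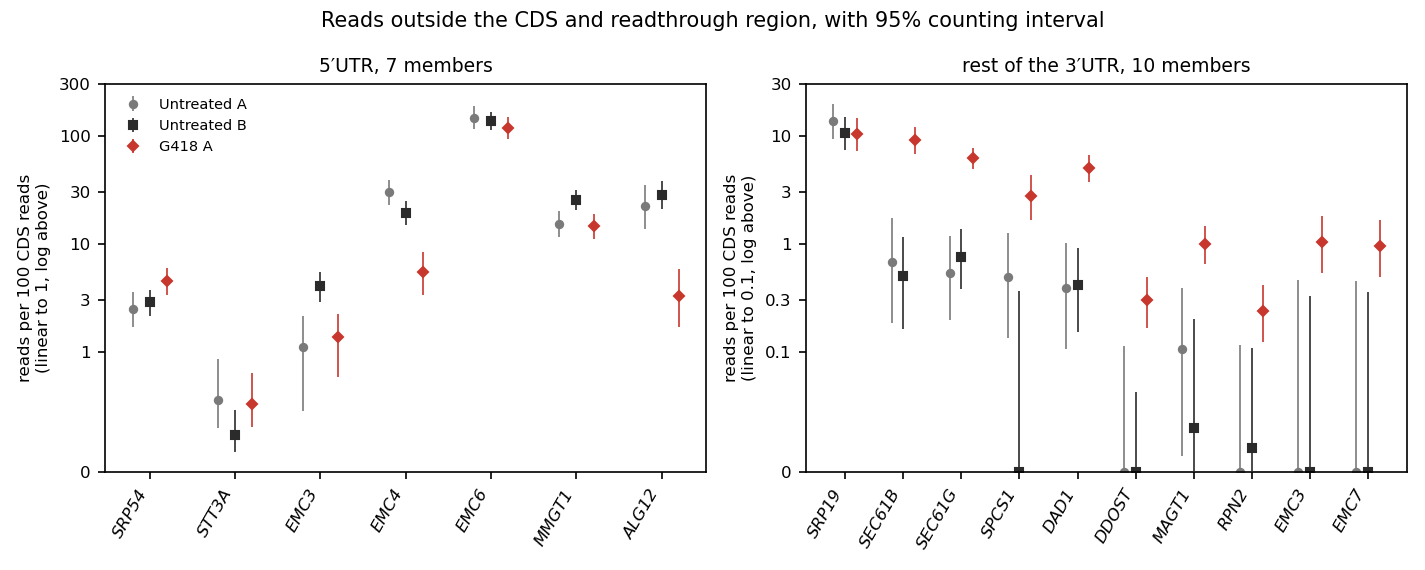
Reads per 100 CDS reads in the 5′UTR (left, 7 genes with a mean of at least 20 reads there) and in the 3′UTR beyond the readthrough region (right, the 9 genes higher in G418 and SRP19), with 95% counting intervals for each library on axes that are linear near 0 and logarithmic above. EMC4 and ALG12 lie lower in G418 on the left, and SEC61B, SEC61G and DAD1 lie highest in G418 after SRP19 on the right. Values are not corrected for the length of the region or of the CDS.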

How the data were processed

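RPFs were taken from 3 HEK293T libraries, grouped by the treatment label. As the study's methods describe, the authors collapsed duplicate reads by molecular identifier, removed reads of noncoding RNA, and aligned the rest with STAR to hg38 and GENCODE v30, keeping 1 primary alignment per read. They placed the A site of each 28 to 35 nt fragment on 1 transcript per gene. The submitters' processing notes name CASAVA 1.8 and STAR. The deposited values are RPM per region, RPKM densities, whole-number counts, and ratios (RRTS and 3′UTR occupancy), all made by the authors. CDS densities leave out the first 18 and last 15 nt, and the readthrough region leaves out 6 nt after the NTC. Near-identical genes can exchange reads under this alignment.

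Every deposited RPM value was a whole multiple of 1 read (100%, within 0.01 of a read), so reads of the UTRs were recovered by division. For 9080 of 9099 transcripts of Untreated A, recovery gave 1 CDS read more than the deposited count. Deposited CDS counts were tested with edgeR 4.0.16 (quasi-likelihood, two-sided, Benjamini-Hochberg over 5684 transcripts, library sizes from the RPM scale) in R 4.3.3. DESeq2 1.42.0, TMM, other read minimums, recovered reads and leaving out an untreated library were alternatives. The recovered reads, put through the same test, called 184 transcripts higher and 32 lower. RRTS intervals are exact 95% intervals (Clopper-Pearson for single genes, Poisson for sums) and cover counting error only. Beside a score of 0, the limit printed is that of 3 reads, while the comparison of intervals used the exact ones. The main set required the study's minimum of reads as a mean over the CDS. P-values and SEs of edgeR rest on the spread between the untreated libraries and on a trend of that spread over all transcripts. They do not measure the spread of each gene alone. The study describes the untreated libraries as biological replicates, and the labels do not tie them to separate cultures.

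Genes named with all values were those past the edgeR threshold, the 10 highest RRTS in G418 with at least 10 reads, the 5 lowest where at least 50 reads were predicted at 100%, and the most and least changed of each role. Other genes completing a complex were named after their values were seen. The genes, lists and rules were chosen with earlier results of these data known.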

Additional observations from a re-analysis of the deposited data

How the results depend on the processing

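The count of genes higher in CDS reads was 4, and moved to 1 with TMM scaling and to 0 with DESeq2, which gave no adjusted p to 15 of the 45 genes, ALG12 included, and so could not call them. It was between 3 and 4 with a mean of at least 10 or 500 CDS reads and with recovered reads. Over all transcripts, the main edgeR test called 181 higher and 31 lower, TMM 106 and 42, and DESeq2 10 and 16. With a mean of at least 10 reads it called 189 and 29, and with at least 500 reads 59 and 21. By fold alone, 6 genes were higher and 0 lower. At least 500 reads left 3 higher, and at least 10 reads added 1 lower, ALG1L. The count of genes with a higher RRTS was 17, and moved to 3 in the edgeR fit. The pooled RRTS in G418 of 27.8% moved to 21.5% without OST4, 24.1% with regions of at least 60 nt, 21% with at least 500 CDS reads and 13.9% as a median. After the values were seen, it was also taken without OST4 and SEC61G (18%) and without OST4, SEC61G, SPCS1 and EMC6 (13.5%). Its fold over the untreated libraries of 15.6 moved to 24.9 without OST4 and to 26.6 with at least 500 CDS reads. Leaving out an untreated library gave a fold of 12.6 to 20.3, a median log2 change of 0.22 to 0.31, 6 to 7 genes higher and 0 lower by fold, and 17 to 21 with a higher RRTS. No edgeR or DESeq2 test was made with 1 library against 1. The 4 called genes lay above both untreated libraries in G418, so leaving 1 of these out could not change their direction. No paired analysis was possible because the groups share only the letter A. The cause of these shifts was not tested.

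The single G418 library limits every comparison, since no spread between treated cultures was measured. Scores of genes with few reads past the stop are imprecise, and 0 reads exclude only scores above the stated limit.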
